A study of Homo sapiens with 42 samples.

Results

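Heat shock proteins and chaperones were followed in Hep3B cells, a human hepatoma line, over a time course in CM or NCM. The members were taken by gene symbol: HSPA, HSPB, HSPD, HSPE, HSPH, HSP90 or DNAJ genes, the numbered CCT genes and TCP1, each on a probe that names this gene alone and, where a gene had more than 1 such probe, on the one with the highest mean log2 intensity. This gave 36 of the 5631 genes measured, on 42 probes including the 6 further probes of these genes. They comprise 7 genes of the HSP70 class, 3 of the HSP90 class, the 2 genes of the mitochondrial HSP60/HSP10 chaperonin, 2 small heat shock protein genes, 16 J protein genes (DNAJ) and 6 subunit genes of the cytosolic chaperonin TRiC. TCP1, HSPH1 and HSPB1 were not measured by such a probe.

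The CM cultures received a medium rich in pro-inflammatory cytokines, per the labels, and the NCM cultures its control. What the abbreviations stand for and how either medium was made is not given in the sources used here. Each medium was sampled at 7 times, T0 and then 15 min, 30 min, 1 h, 3 h, 6 h or 16 h later, in 3 independent experiments, which gives 42 arrays, 1 per culture, in 14 groups of 3. The CM and the NCM culture of a pair came from 1 batch of cells, so each time holds 3 pairs. All cultures are of 1 established line.

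Chaperones bind unfolded stretches of proteins and let them fold. HSP70 proteins do this in cycles of ATP hydrolysis that J proteins start and that HSP90 can continue, while the chaperonins enclose a protein in a ring-shaped chamber. Many of their genes are induced by heat shock factor 1 through heat shock elements, repeats of GAA and its complement TTC, and those of the endoplasmic reticulum by the unfolded protein response. In liver cells the chaperones of the endoplasmic reticulum also serve the folding of secreted plasma proteins, which inflammation changes.

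The promoter stretches that hold these elements are shown first, since heat shock factor 1 and the unfolded protein response are known to act through them. Sequences are from RefSeq (GRCh38.p14) and were read over the 250 bases before each start. By Entrez ID 35 of the 36 members had a promoter, all but CCT6A. These members have 48 promoters, and a match in any of them counts for its gene. Capitals mark the heat shock element GAANNTTCNNGAA, found on either strand, in the following genes, with its neighbouring bases in lower case.
DNAJB6, chr7:157336853-157336905, plus strand: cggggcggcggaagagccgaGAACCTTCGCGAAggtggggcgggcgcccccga
HSP90AA1, chr14:102087100-102087152, minus strand: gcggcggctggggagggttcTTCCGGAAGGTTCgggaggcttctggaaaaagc
HSP90AB1, chr6:44247758-44247863, plus strand: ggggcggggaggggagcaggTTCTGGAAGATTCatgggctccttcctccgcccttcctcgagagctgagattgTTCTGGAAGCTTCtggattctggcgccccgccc
HSPA8, chr11:123062159-123062211, minus strand: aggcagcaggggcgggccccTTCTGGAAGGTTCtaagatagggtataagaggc
HSPD1, chr2:197500048-197500090, minus strand: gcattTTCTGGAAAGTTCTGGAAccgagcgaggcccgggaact

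HSPA8 holds this element at a further place, chr11:123062334-123062386 on the minus strand, and in HSPD1 a pair of overlapping matches forms the run of capitals. The element was present in 5 of 35 members (14.3%) and in 0.557% of the 27305 genes with a promoter. Its shorter form GAANNTTC, which every match of the longer one contains, was present in 13 of 35 members (37.1%) and in 7.05% of all genes. The form TTCNNGAA, also part of the longer element, was present in 8 of 35 (22.9%) and in 8.12% of all genes.

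The endoplasmic reticulum stress element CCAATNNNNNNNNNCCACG was present in HSPA5 and HSP90B1 alone among the members (5.71%), and in 0.0916% of all genes. The CCAAT box, which this element contains, was present in 15 of 35 members (42.9%) and in 37% of all genes. The capitals below mark the whole element, which stands on the opposite strand in the second stretch of HSP90B1. A match is a description of these letters and does not show that a factor is bound in Hep3B cells.
HSPA5, chr9:125241371-125241429, minus strand: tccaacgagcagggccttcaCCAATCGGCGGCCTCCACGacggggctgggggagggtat
HSP90B1, chr12:103930196-103930254, plus strand: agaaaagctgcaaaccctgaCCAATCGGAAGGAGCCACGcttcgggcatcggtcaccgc
HSP90B1, chr12:103930301-103930359, plus strand: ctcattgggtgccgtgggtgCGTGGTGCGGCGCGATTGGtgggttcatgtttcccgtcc

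Intensities are linear, with a mean over all probes between 0.999 and 1.00 on each array, and their medians lay between 0.354 and 0.807. Levels below are log2 of the quantile-normalized intensity, and a change is CM minus NCM on that scale, with its SE from limma. Levels are compared within a probe, and across probes only as ranks of mean brightness. Among the members 20 were brighter than the median probe and 11 lay in the dimmest 25% of probes, and 5 of their 1512 values were at the floor of 0.0813. As a check of the cells, 12 of 12 hepatocyte markers were measured and 12 were above the median probe, against 1 of the 7 measured markers of fibroblasts, leukocytes, endothelium and erythroid cells.

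No chaperone gene passed the threshold of an adjusted p of 0.05 in limma, at any time or in any mean over times. Over all 13824 probes the share called was 0% at each time from T0 to 6 h, 0.00723% at 16 h, 0% in the early mean (15 min, 30 min and 1 h), 0.0434% in the late mean (3 h, 6 h and 16 h), 0% for the late minus the early mean, 0% for each later time minus T0 and 0% in the F test over the 6 later times. At an unadjusted p under 0.05 there were 4 members at T0, against 5.45% of all genes, 2 at 15 min (3.2% of genes), 2 at 30 min (4.17%), 0 at 1 h (4.44%), 4 at 3 h (3.34%), 1 at 6 h (3.36%) and 3 at 16 h (4.69%). Of 36 members, 4 are 11.1%, 3 are 8.33%, 2 are 5.56% and 1 is 2.78%. The F test over the 6 later times had 1 member at an unadjusted p under 0.05, against 2.81% of genes. The early mean had 2 (6.3% of genes), the late mean 2 (5.38%) and the late minus the early mean 3 (6.45%). For a later time minus T0 there were 3 at 15 min (3.98% of genes), 2 at 30 min (5.79%), 3 at 1 h (3.45%), 3 at 3 h (2.63%), 1 at 6 h (4.03%) and 4 at 16 h (3.82%).

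In their median change the members lay close to 0 and to all genes. Their median change was 0.006 at T0, -0.02 at 15 min, -0.12 at 30 min, 0.08 at 1 h, -0.09 at 3 h, -0.03 at 6 h and -0.05 at 16 h, while the median of all genes lay between -0.02 and 0.02 at every time. Above 0 were 18 of 36 at T0 (50.1% of all genes), 17 at 15 min (48.4%), 12 at 30 min (48.4%) and 23 at 1 h (49.4%). There were 12 at 3 h (49.9%), 15 at 6 h (47.3%) and 16 at 16 h (53%). Of 36 members, 12 are 33.3% and 23 are 63.9%, so the split of signs at 30 min, 1 h and 3 h was less even than that of all genes. How far the 3 pairs of a time differed in their group median varied. The spread was widest at 15 min, with 0.34, -0.14 and -0.22, and narrowest at 6 h, with -0.06, -0.03 and -0.05.

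The intervals show how precisely each change was measured. They are for single genes and unadjusted, so they do not give the size of change that the adjusted threshold would miss. The 95% interval of the change lay between -1 and 1 for 28 of 36 members at T0 (80.2% of all genes), 32 at 15 min (84.2%), 26 at 30 min (82%), 26 at 1 h (82.5%), 27 at 3 h (84.7%), 31 at 6 h (84.4%) and 30 at 16 h (82.4%). In the early mean it did so for 36 of 36 (99.7% of all genes) and in the late mean for 36 of 36 (98.8%). Each of these means rests on 9 pairs from 3 experiments, and whether an experiment number stands for the same cells at different times is not stated. Precision is limited by the number of arrays.

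**Figure D1:**
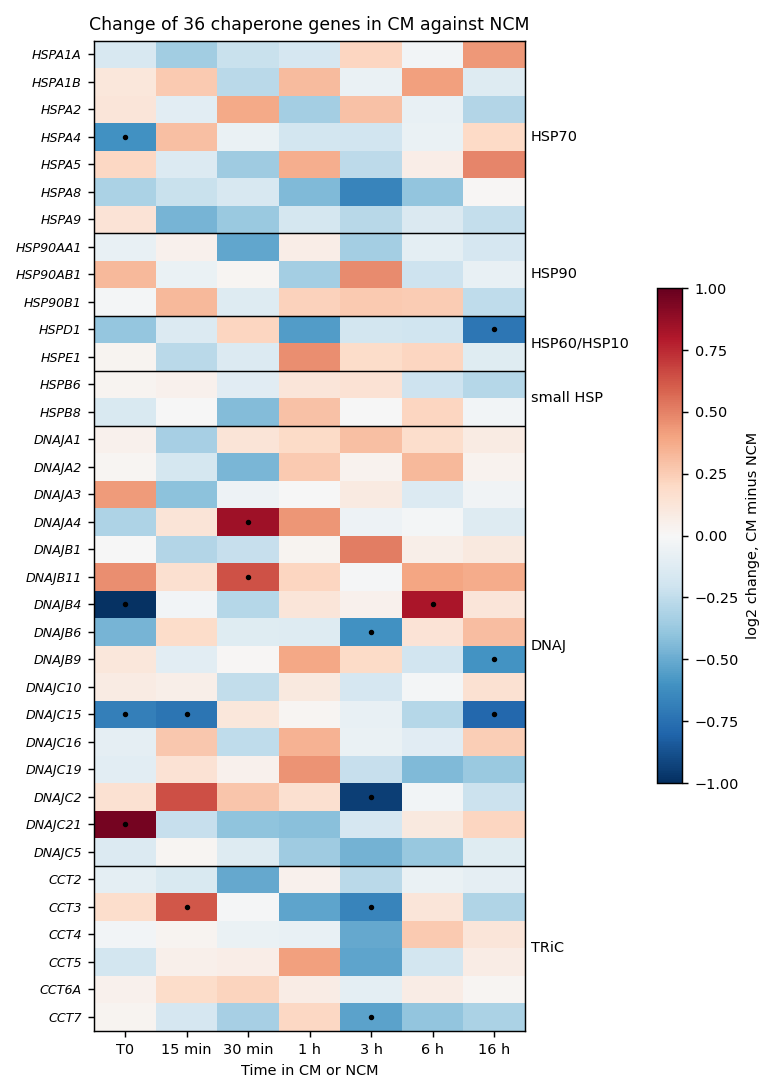
Log2 change of the 36 chaperone genes (rows, grouped by class) in CM against NCM at the 7 times (columns), red for higher and blue for lower in CM; a dot marks an unadjusted p under 0.05 in limma. The dots number 4, 2, 2, 0, 4, 1 and 3 from T0 to 16 h, and in the lowest block, TRiC, the 6 rows are blue at 3 h.

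Among the HSP70 genes, HSPA8 encodes the constitutive cytosolic HSC70. At 3 h its log2 intensity was -1.22, -1.04 and -0.16 in CM, against -0.73, -0.0042 and 0.29 in NCM. Each CM culture lay below its own NCM partner, although the groups overlap because the experiments differ in level. The change was -0.66 (SE 0.32, 95% interval -1.34 to 0.02, adjusted p = 1.00), with -0.44 at 1 h and -0.40 at 6 h, and 0.01 at 16 h.

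The stress-inducible HSP70 is encoded by the nearly identical genes HSPA1A and HSPA1B, and the probe sequences that would show whether a probe tells them apart were not used here. At 16 h HSPA1A had 0.99, 1.45 and 0.78 in CM, against 0.23, 0.76 and 0.93 in NCM, a change of 0.43 (SE 0.28) that was positive in 2 of 3 pairs. HSPA1B was dim, and at 6 h it had -1.72, -1.92 and -2.07 in CM, against -2.60, -2.21 and -2.14 in NCM (change 0.41, SE 0.33). Its groups did not overlap at 6 h, which held for 2.22% of all genes in this direction, but the third pair differed by 0.07. HSPA1A had changes from -0.35 at 15 min to 0.43 at 16 h.

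HSPA5 encodes BiP, the HSP70 of the endoplasmic reticulum and a classical target of the unfolded protein response. At 16 h it had -0.11, -0.53 and 0.58 in CM, against -1.06, -1.15 and 0.69 in NCM. The first 2 experiments were higher in CM and the third was not, for a change of 0.49 (SE 0.33, 95% interval -0.19 to 1.17). It had 0.36 at 1 h and -0.36 at 30 min.

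HSPA9, mortalin, is the HSP70 of the mitochondrial matrix. At 15 min it had -0.07, -0.19 and -0.76 in CM, against 0.50, -0.16 and 0.03 in NCM, lower in 3 of 3 pairs, the second by 0.03. Its change was below 0 at each of the 6 times after T0, between -0.46 and -0.14, and 0.14 at T0. The early mean was -0.34 (SE 0.14, unadjusted p = 0.0245, adjusted p = 0.686), lower in 7 of 9 pairs.

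HSPA4, an HSP110-type nucleotide exchange factor for HSP70, had its largest change at T0. It had -1.46, -2.28 and -2.16 in CM, against -1.52, -0.87 and -1.71 in NCM, a change of -0.60 (SE 0.27) that was -0.20 without replicate 2, whose pair differed by -1.41. HSPA2, best known from the testis, had -2.16, -1.85 and -1.59 in CM at 30 min, against -1.71, -2.65 and -2.39 in NCM (change 0.38, SE 0.30). Both were dim, and both had pairs of opposite sign.

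In the HSP90 class, HSP90AA1 encodes the stress-inducible and HSP90AB1 the constitutive cytosolic protein. At 30 min HSP90AA1 had -0.96, -0.31 and -0.03 in CM, against -0.38, 0.24 and 0.39 in NCM. All 3 pairs were lower, by 0.58, 0.55 and 0.42, so the pairs differed less from each other than the experiments did. The change was -0.52 (SE 0.28, 95% interval -1.09 to 0.06, adjusted p = 0.997). It was 0.04 at 15 min, with pair differences of 1.22, -0.62 and -0.47. At 1 h it was 0.07, with pair differences of 0.67, -0.36 and -0.11. Over the 21 pairs HSP90AA1 was higher in CM in 4.

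HSP90AB1 stood on the other side of 0 at 3 h. It had 0.33, -1.26 and -0.48 in CM, against -0.50, -1.49 and -0.85 in NCM, higher in 3 of 3 pairs (change 0.47, SE 0.23, adjusted p = 1.00). HSP90AA1 at that time had -0.34, lower in 3 of 3 pairs. Already at T0 HSP90AB1 was higher in CM in 3 of 3 pairs, by 0.34, 0.21 and 0.44. Its groups did not overlap there, which held for 1.39% of all genes at T0 in this direction. At 1 h and at 6 h HSP90AB1 was lower in CM in 3 of 3 pairs. HSP90B1 encodes GRP94, the HSP90 of the endoplasmic reticulum. Its brightest probe had 0.56, 1.02 and 0.41 in CM at 15 min, against -0.88, 0.76 and 1.13 in NCM, with pair differences of 1.44, 0.26 and -0.73 and a change of 0.32 (SE 0.32).

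HSPD1 and HSPE1 encode HSP60 and HSP10, the ring and the lid of the mitochondrial chaperonin, and lie head to head on chromosome 2. At 16 h HSPD1 had 0.52, -1.44 and -0.97 in CM, against 0.15, 0.15 and -0.03 in NCM. The CM arrays spread widely while the NCM arrays lay close together, and the first experiment was higher in CM. The change was -0.73 (SE 0.35, unadjusted p = 0.0486, adjusted p = 0.942), and it was -0.29 without replicate 2 and -1.27 without replicate 1. HSPE1 had -0.12 at 16 h, and its largest change was 0.46 (SE 0.36) at 1 h, with -0.07, -2.90 and -2.64 in CM, against -0.62, -2.84 and -3.54 in NCM. A probe that names both HSPE1 and MYO15B had pair differences of -0.27, -0.02 and 0.05 at 1 h. The experiments differed in HSPE1 far more than the media did. Over the 21 pairs the differences of the 2 genes correlated at r = -0.33, a description across pairs of shared arrays.

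The small heat shock proteins hold unfolded proteins without ATP. HSPB8, a partner of BAG3 in autophagy, had -1.29, -2.63 and -1.25 in CM at 30 min, against -0.15, -1.90 and -1.82 in NCM (change -0.43, SE 0.31, lower in 2 of 3 pairs, but -0.08 without replicate 1). HSPB6 had 0.60, -0.89 and -1.32 in CM at 16 h, against 0.53, -0.44 and -0.85 in NCM (change -0.28, SE 0.23, lower in 2 of 3 pairs). In both genes the groups overlapped widely. HSPB1 shares probe 8843 with its pseudogene HSPB1P1, so the 2 cannot be told apart. That probe had 0.38, -1.10 and -0.61 in CM at 30 min, against 0.60, 0.04 and 0.28 in NCM, a change of -0.75 (SE 0.22, unadjusted p = 0.00286, adjusted p = 0.997), lower in 3 of 3 pairs.

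J proteins bring substrates to HSP70 and start its ATP hydrolysis. DNAJA4, a cytosolic J protein, gave the smallest unadjusted p of any member. At 30 min it had -0.79, -0.90 and -2.14 in CM, against -1.90, -1.93 and -2.52 in NCM. Each CM culture was above its partner, by 1.12, 1.03 and 0.38, but the third experiment was low in both media, so the groups overlap. The change was 0.84 or 1.8-fold (SE 0.22, 95% interval 0.39 to 1.30, unadjusted p = 0.000984, adjusted p = 0.997).

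At 1 h DNAJA4 was again higher in 3 of 3 pairs, with -0.997, -1.50 and -1.74 in CM, against -1.66, -2.01 and -1.88 in NCM (change 0.44, SE 0.22). At the other times it stayed near 0, with 0.13 at 15 min, -0.05 at 3 h, -0.02 at 6 h and -0.13 at 16 h, and it had -0.31 at T0. The early mean was 0.47 (SE 0.13, unadjusted p = 0.00133, adjusted p = 0.686), higher in 8 of 9 pairs. The late mean minus this early mean was -0.54 (SE 0.18, adjusted p = 0.589), and the change at 30 min minus that at T0 was 1.15 (SE 0.31, adjusted p = 0.999). Neither difference between times passed. The probe is dim, brighter than 15.3% of all probes.

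DNAJB11 encodes a J protein of the endoplasmic reticulum lumen, a partner of BiP. At 30 min it had -1.23, -0.17 and -1.66 in CM, against -2.15, -1.23 and -1.58 in NCM. The first 2 experiments were higher in CM by 0.92 and 1.07 and the third lower by 0.08 (change 0.63, SE 0.28, adjusted p = 0.997). Its change was 0.47 at T0 and above 0 at all times but 3 h, where it was -0.01, and over the 21 pairs 15 were higher in CM. The early mean was 0.34 (SE 0.16).

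DNAJB9, another J protein of that compartment and a target of the unfolded protein response, had -1.79, -1.24 and -1.70 in CM at 16 h, against -0.95, -0.80 and -1.17 in NCM. Every CM array was below every NCM array, which held for 2.89% of all genes at 16 h in this direction. The change was -0.60 (SE 0.21, 95% interval -1.04 to -0.15, unadjusted p = 0.0112, adjusted p = 0.942). At 1 h it was 0.38 (SE 0.21), with -1.88, -0.67 and -0.92 in CM, against -1.61, -1.35 and -1.65 in NCM. DNAJC10, a disulfide reductase of the same compartment, had -1.98, -2.03 and -1.14 in CM at 30 min, against -1.48, -1.95 and -0.97 in NCM (change -0.25, SE 0.24). DNAJC16, also of the endoplasmic reticulum, had -0.94, -1.53 and -0.81 in CM at 1 h, against -1.45, -1.71 and -1.15 in NCM (change 0.35, SE 0.22). BiP, DNAJB11, DNAJB9 and GRP94 did not share a direction at 16 h, with 0.49, 0.37, -0.60 and -0.25.

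Of the cytosolic partners of HSC70, DNAJB1 encodes the heat-inducible HSP40. At 3 h it had 0.47, -0.33 and -0.27 in CM, against -0.14, -1.20 and -0.33 in NCM, higher in 3 of 3 pairs (change 0.51, SE 0.31, adjusted p = 1.00). Its partner HSPA8 had -0.66 at the same time. DNAJA1 had -0.48, -0.65 and -0.71 in CM at 15 min, against 0.26, -0.43 and -0.67 in NCM (change -0.34, SE 0.29). DNAJA2 had -0.75, -1.92 and -0.80 in CM at 30 min, against -0.82, -0.63 and -0.66 in NCM, a change of -0.45 (SE 0.25) that was -0.03 without replicate 2.

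DNAJB4, a relative of DNAJB1, was among the dimmest members and had changes of opposite sign at T0 and 6 h. At T0 it had -2.40, -3.62 and -1.79 in CM, against -2.04, -1.09 and -1.73 in NCM. The value -3.62 is the floor, and that pair differed by -2.53 while the others differed by -0.36 and -0.06 (change -0.98, SE 0.34, unadjusted p = 0.00968, adjusted p = 0.970). Without replicate 2 the change at T0 was -0.21. At 6 h it had -2.04, -1.66 and -1.55 in CM, against -3.29, -1.91 and -2.49 in NCM (change 0.81, SE 0.34, adjusted p = 0.999), higher in 3 of 3 pairs, but 0.27 with a floor at the 10th percentile. The change at 6 h minus that at T0 was 1.80 (SE 0.49, adjusted p = 1.00), and it contains the array at the floor.

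DNAJB6, which keeps aggregation-prone proteins soluble, had -1.43, -1.41 and -1.21 in CM at 3 h, against -0.15, -1.30 and -0.76 in NCM. It was lower in 3 of 3 pairs, by 1.27 in the first and 0.10 in the second (change -0.61, SE 0.26, unadjusted p = 0.0291). Leaving out replicate 1 shrank this change to -0.27, and averaging the probes of DNAJB6 shrank it to -0.34. The other probe of DNAJB6 had -0.07 (SE 0.21) at 3 h, lower in 2 of 3 pairs. DNAJC5, the cysteine string protein of secretory vesicles, had -3.62, -1.98 and -1.79 in CM at 3 h, against -2.61, -1.79 and -1.57 in NCM (change -0.48, SE 0.31), lower in 3 of 3 pairs with 1 array at the floor.

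Among the mitochondrial J proteins, DNAJC15 lies in the inner membrane. At 16 h it had -1.61, -1.67 and -2.89 in CM, against -1.30, -1.05 and -1.47 in NCM, with no overlap (change -0.79, SE 0.31, unadjusted p = 0.0186, adjusted p = 0.942). At T0 it had -1.21, -1.39 and -1.89 in CM, against -1.20, -0.28 and -0.96 in NCM, also with no overlap (change -0.69, SE 0.31), which held for 1.44% of all genes at T0 in this direction. At 15 min it had -3.62, -1.27 and -2.49 in CM, against -2.22, -1.34 and -1.63 in NCM (change -0.73, SE 0.31). The T0 pairs therefore differed by about as much as those at 15 min and 16 h, and the changes at 30 min, 1 h and 3 h were 0.11, 0.02 and -0.08. The late mean was -0.38 (SE 0.18, adjusted p = 0.827), lower in 7 of 9 pairs. With neighbour centring, which subtracts from each value the mean deviation of its neighbours on an assumed spot grid, the late mean was -0.02, T0 -0.17 and 16 h -0.33, and with a floor at the 10th percentile 15 min was -0.12.

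DNAJC19 is a subunit of the motor that imports proteins into mitochondria. At 6 h it had 0.86, -0.68 and 0.26 in CM, against 0.80, 0.38 and 0.58 in NCM (change -0.44, SE 0.29, but -0.13 without replicate 2), and at 1 h 0.47, 0.34 and 0.57 in CM, against -0.69, 0.54 and 0.18 in NCM (change 0.45, SE 0.29, but 0.10 without replicate 1). The late mean was -0.35 and the late mean minus the early mean -0.56 (SE 0.24, unadjusted p = 0.0284, adjusted p = 0.624). The other probe of DNAJC19 lay on the other side of 0, with 0.38 (SE 0.28) at 6 h and 0.22 in the late mean. DNAJA3, of the mitochondrial matrix, was higher in 3 of 3 pairs at T0, with -1.08, -1.09 and -0.27 in CM, against -1.10, -1.46 and -1.18 in NCM (change 0.43, SE 0.23), and it had -0.41 at 15 min.

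The remaining J proteins act at the ribosome. DNAJC2, which meets new chains as they leave the ribosome, had -2.40, 0.25 and 0.43 in CM at 3 h, against 0.27, 0.34 and 0.49 in NCM. A single CM array stands apart, and the change of -0.94 (SE 0.42, unadjusted p = 0.0376) was -0.08 without replicate 1. DNAJC21, a factor of ribosome assembly, had -1.31, -0.94 and -1.53 in CM at T0, against -1.76, -3.43 and -1.48 in NCM. Here 1 NCM array was low, and the pair differences were 0.44, 2.49 and -0.06 (change 0.96, SE 0.34, unadjusted p = 0.00985); without replicate 2 it was 0.19. Differences from T0 carry this array, and DNAJC21 had changes between -0.42 and 0.22 at the 6 later times.

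**Figure D2:**
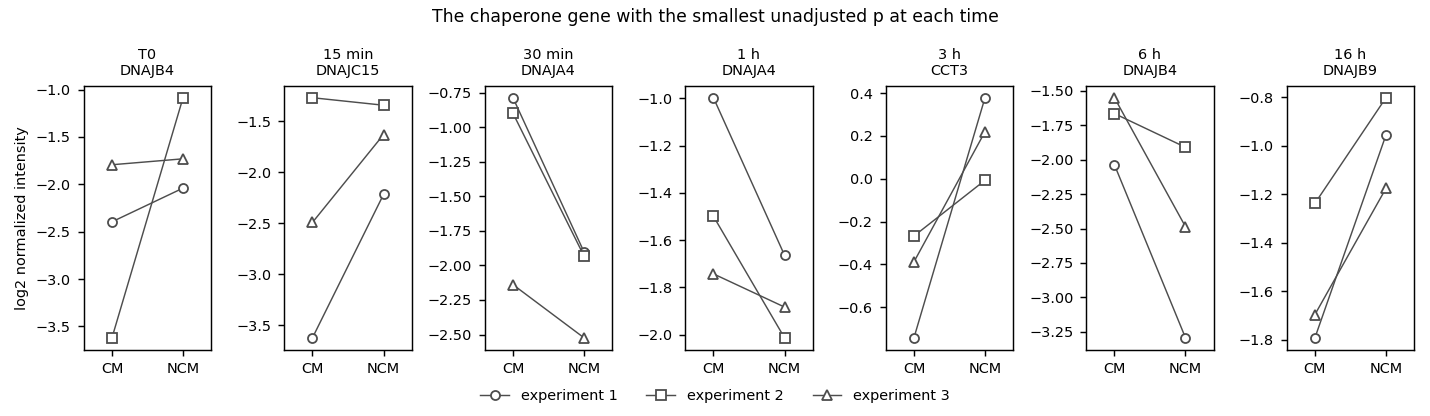
Log2 normalized intensity of the chaperone gene with the smallest unadjusted p at each time, in CM (left) and NCM (right), with a line for each pair and a marker for each of the 3 experiments; each panel has its own vertical axis. Lines run the same way in all 3 pairs in 6 of the 7 panels, and at T0 the slope rests mostly on experiment 2, where DNAJB4 is at -3.62 in CM and -1.09 in NCM.

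TRiC is a double ring of different subunits that folds actin and tubulin. Its 6 measured subunit genes all lay below 0 at 3 h, with a median change of -0.52, against -0.0005 for all genes, and 0 of 6 passed the threshold. CCT3 had -0.74, -0.27 and -0.39 in CM, against 0.38, -0.01 and 0.22 in NCM (change -0.66, SE 0.28, unadjusted p = 0.0276, adjusted p = 1.00; -0.43 without replicate 1). CCT7 had -0.61, -1.10 and -0.91 in CM, against -0.08, -0.57 and -0.37 in NCM (change -0.53, SE 0.24, unadjusted p = 0.0373). Both were free of overlap, and the 3 pairs of CCT7 differed by 0.53, 0.53 and 0.54. CCT4 had -1.40, -0.46 and -0.42 in CM, against -0.17, -0.41 and -0.17 in NCM (change -0.51, SE 0.31), and without replicate 1 it was -0.15.

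CCT5 had -1.05, -0.64 and -0.78 in CM at 3 h, against -0.75, -0.12 and -0.03 in NCM (change -0.53, SE 0.36), lower in 3 of 3 pairs. CCT2 had -0.57, -0.68 and -0.52 in CM, against -0.76, 0.03 and -0.24 in NCM (change -0.27), lower in 2 of 3 pairs. CCT6A, the brightest of the 6, had 1.58, 1.72 and 1.60 in CM, against 1.47, 2.05 and 1.68 in NCM (change -0.10), with pairs on both sides of 0. Over the 6 genes and 3 pairs of cultures, 16 of 18 differences were below 0, against 7 to 12 of 18 at the other times. The 6 genes of a pair were read on the same arrays, so the 18 values are not separate comparisons. The median over the 6 genes was -0.42, -0.43 and -0.41 in the 3 experiments.

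A change of -0.5 or lower was reached by 4 of the 6 TRiC genes at 3 h and by 3.43% of all genes. This count was added after the values were seen, so it is a description and no test. At each other time 0 or 1 of the 6 reached the limit (2.86% to 6.02% of all genes). The count at 3 h was 2 of 6 without replicate 1 (4.88% of all genes) and 2 of 6 with the values as deposited. CCT4, CCT5 and CCT7 lay just past this limit, at -0.51, -0.53 and -0.53. Groups did not overlap, with CM below NCM, in 4 of 36 members at 3 h (CCT3, CCT4, CCT7 and HSPA9), against 2.54% of all genes. All 3 pairs were lower in 11 of 36 members at 3 h, against 12.6% of all genes. In the other direction all 3 pairs were higher in 5 of 36 members, against 13.5% of all genes. Groups did not overlap, with CM above NCM, in 1 of 36 (DNAJA1), against 2.61% of all genes. The TRiC pattern was noticed in these data and has no test of its own, and the genes of a class on 1 array share that array's errors. The probe for CCT8, the subunit gene that shares its probe with C21orf112, had -1.61, -1.11 and -1.42 in CM at 3 h, against -1.63, -0.35 and -0.46 in NCM (change -0.56, SE 0.43), lower in 2 of 3 pairs. At T0 that probe was already lower in CM in all 3 pairs, with differences of -0.24, -0.68 and -0.19. The other probe of CCT4 had 0.00 at 3 h.

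At the other times the TRiC median lay closer to 0. The median of the 6 genes was 0.00 at T0, 0.04 at 15 min, -0.04 at 30 min, 0.06 at 1 h, 0.003 at 6 h and -0.03 at 16 h. At 15 min the 3 experiments gave 0.82, -0.37 and -0.39 for the same 6 genes, so a shift of the class within 1 experiment of the size seen at 3 h also occurred there. CCT3 at 15 min had -0.10, 0.47 and 0.02 in CM, against -1.40, -0.12 and 0.04 in NCM (change 0.62, SE 0.28, but 0.28 without replicate 1), and at 1 h -0.65, -0.53 and -0.10 in CM, against 0.53, -0.20 and -0.03 in NCM (change -0.52, SE 0.28, but -0.20 without replicate 1). CCT2 at 30 min had -0.78, -0.71 and -0.68 in CM, against -0.50, -0.06 and -0.08 in NCM, without overlap (change -0.51, SE 0.29), which held for 1.74% of all genes in this direction. CCT6A at 30 min had 1.76, 2.46 and 1.58 in CM, against 1.83, 1.60 and 1.70 in NCM (change 0.22, SE 0.20), where 1 CM array was high.

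CCT7 kept its direction over the late times. Its mean was also lower in CM at 15 min (-0.75 against -0.58 in NCM) and at 30 min (-0.95 against -0.62). It was higher in CM at T0 (-0.45 against -0.48) and at 1 h (-0.65 against -0.86). At 6 h it had -1.55, -1.33 and -0.95 in CM, against -1.03, -0.75 and -0.88 in NCM (change -0.39, SE 0.24), and at 16 h -0.88, -1.14 and -0.35 in CM, against -0.23, -0.94 and -0.24 in NCM (change -0.32). The late mean was -0.41 or 0.75-fold (SE 0.14, 95% interval -0.70 to -0.13, unadjusted p = 0.00706, adjusted p = 0.757), lower in 9 of 9 pairs. In that mean the 6 TRiC genes had a median of -0.18, with 0 of 6 above 0, and the values ran from -0.41 to -0.001. The late mean contains the 3 h values on which the pattern was noticed, and 3 of 6 genes lay above 0 at 6 h and at 16 h. CCT4 had -0.04 in the late mean on its brightest probe and 0.22 on the other, which was higher in 7 of 9 pairs.

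**Figure D3:**
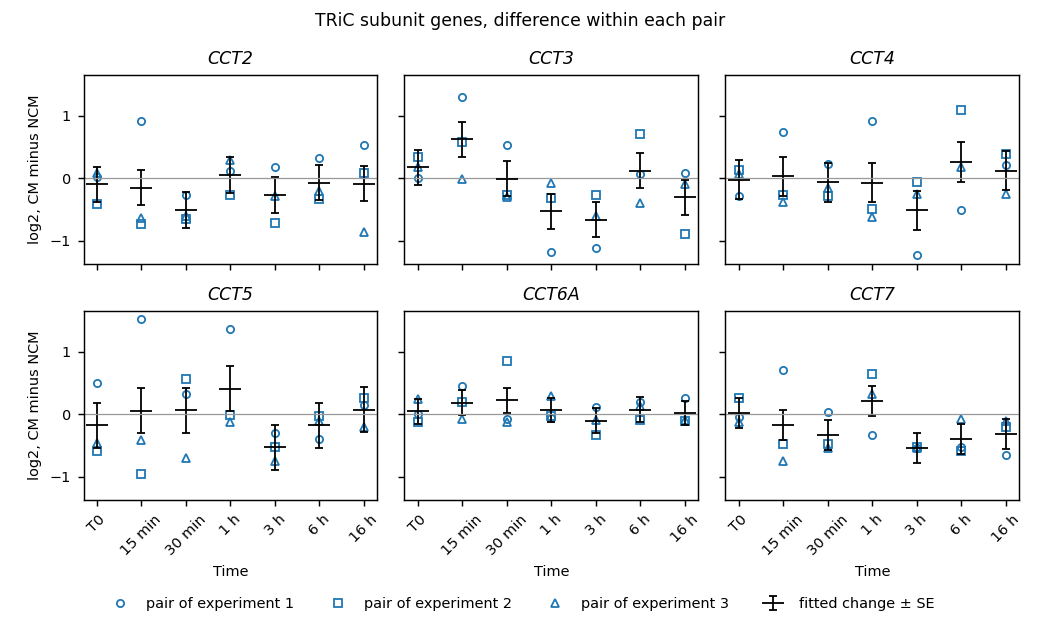
Log2 difference of each CM culture from its NCM partner for the 6 TRiC genes (open markers, 1 shape per experiment) over the 7 times, with the fitted change ± SE in black (n = 3 pairs per time). At 3 h the fitted changes run from -0.66 to -0.10, and at 15 min the circles of experiment 1 lie above 0 for the 6 genes while most of the other markers lie below.

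**Figure D4:**
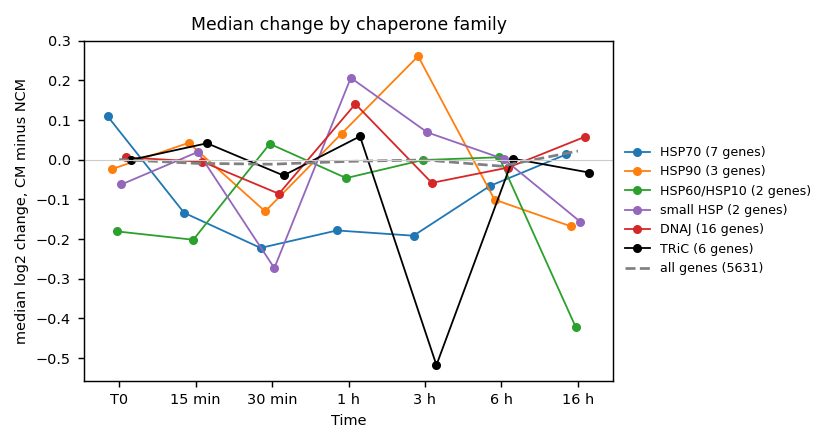
Median log2 change in CM against NCM per chaperone class at each time, with all 5631 genes as a dashed line. TRiC is at -0.52 at 3 h, while the HSP90 class of 3 genes is at 0.26; classes of 2 or 3 genes have medians that 1 gene can move.

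The 6 genes with a second probe show how far a value depends on the probe. Over the 21 pairs the differences on the 2 probes of a gene correlated at r = 0.42 for DNAJB6, 0.25 for HSP90B1, 0.14 for CCT4, 0.082 for DNAJC19, 0.063 for HSPD1 and -0.24 for DNAJA2. They had the same sign in 13, 12, 13, 12, 11 and 5 of 21 pairs. At 16 h the other probe of HSPD1 had -0.54, -0.49 and -0.98 in CM, against -0.77, -0.87 and -0.64 in NCM, a change of 0.09 (SE 0.23) where the brightest had -0.73. For GRP94 the other probe of HSP90B1, number 8464, had -3.24, -2.84 and -2.75 in CM at 15 min, against -2.25, -2.18 and -1.33 in NCM. Every CM array was below every NCM array, which held for 1.76% of all genes at 15 min in this direction, for a change of -1.02 (SE 0.22, unadjusted p = 0.000158, adjusted p = 1.00), against 0.32 on the brightest probe.

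At 30 min probe 8464 had -3.02, -3.14 and -2.59 in CM, against -1.91, -2.64 and -1.81 in NCM (change -0.80, SE 0.22, adjusted p = 0.997), again lower in 3 of 3 pairs, against -0.13 on the brightest probe. It is a dim probe: with a floor at the 10th percentile of intensity its change at 15 min was -0.25, in a range over the alternatives of -1.51 to -0.25 with adjusted p from 0.523 to 1.00. Which of the 2 probes reports the GRP94 transcript was not tested.

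**Figure D5:**
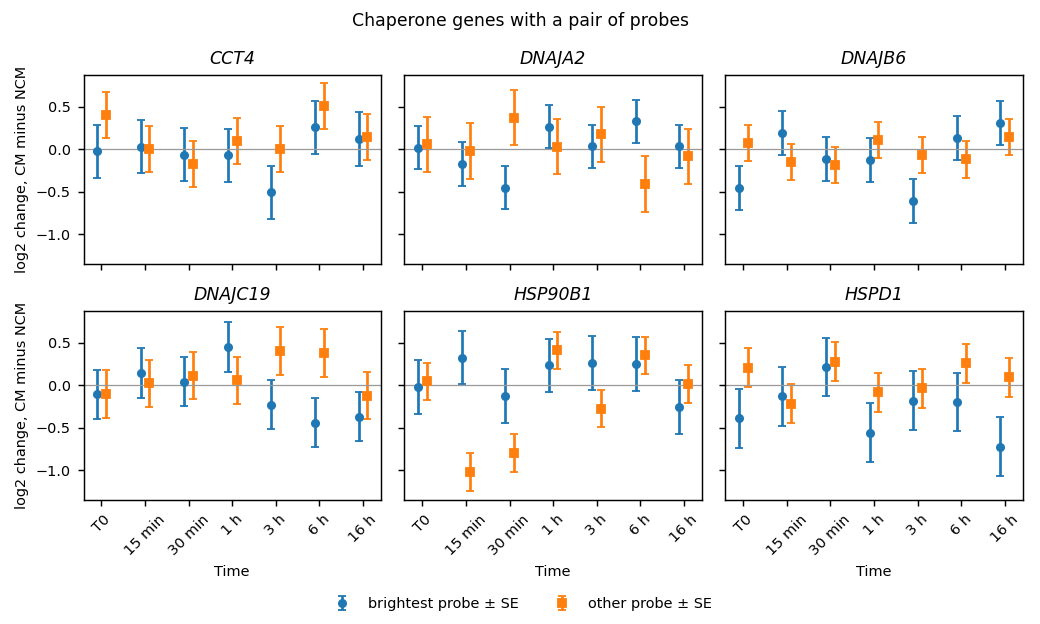
Log2 change ± SE (n = 3 pairs per time) in CM against NCM on the brightest probe (circles) and the other probe (squares) of the 6 chaperone genes with 2 probes. The probes of HSP90B1 part at 15 min, at 0.32 and -1.02, and those of HSPD1 at 16 h, where the brightest has -0.73.

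Differences between media were also set against each other across the 21 pairs, as a description, since the genes of a pair share its 2 arrays. HSP90AA1 and CCT2 had the highest r of any 2 members at 0.79, and between 0.78 and 0.82 under the other scalings. HSPA5 with CCT2 had 0.71 and HSPA5 with HSP90AA1 0.64. HSPA5 with DNAJA2 had 0.70, but 0.02 with neighbour centring, and the lowest, HSPA1A with DNAJC19, was -0.76, but -0.006 with median centring. An r over 0.6 was reached by 1.27% of the 630 pairs of members and by 1.3% of all pairs of genes. Within TRiC the median r was 0.32 over 15 pairs of genes, against 0.004 over all members and -0.001 over all genes.

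Within 1 medium, limma's F test over the 7 times called 0 members in CM and 0 in NCM, with 0 members at an unadjusted p under 0.05 in CM (1.24% of genes) and 0 in NCM (1.85%). Over all probes 1 was called in CM (0.00723%) and 2 in NCM (0.0145%). The smallest p in CM was that of DNAJC21 (0.0673), whose mean was -2.34 at 30 min and -1.20 at 16 h (SD 0.41 at each, n = 3). DNAJB1 in CM ran from -1.06 at 30 min to -0.04 at 3 h, and CCT3 in CM was highest at T0 (0.32) and lowest at 3 h (-0.47). In NCM DNAJA3 came first (0.0648), with -0.67 at 15 min and -1.39 at 16 h, followed by DNAJC15, with -0.81 at T0 and -1.73 at 15 min, and DNAJB6, with -0.45 at T0 and -1.23 at 16 h.

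The 5 genes that hold the longer heat shock element did not share a direction at 3 h, with -0.66 for HSPA8, -0.61 for DNAJB6, -0.34 for HSP90AA1, -0.18 for HSPD1 and 0.47 for HSP90AB1. Genes that work with the members were taken as lists, and 0 genes of any list passed the threshold in limma at any time. Of the 23 listed heat shock factor 1 targets 16 were measured, 10 of them members, and their median lay between -0.15 at 15 min and 0.002 at 1 h. CHORDC1, an HSP90 co-chaperone, had 0.51 (SE 0.22) at 15 min, higher in 3 of 3 pairs, and HMOX1, heme oxygenase, 0.64 (SE 0.27) at 6 h. Of the heat shock factor list 1 of 4 genes was measured, HSBP1, a negative regulator of heat shock factor 1, with 0.48 (SE 0.27) at 16 h.

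Co-chaperones of HSP70 and HSP90 were measured for 13 of 21 genes. Their median lay between -0.16 at 3 h and 0.14 at 30 min, and TTC1 had -0.62 (SE 0.20, unadjusted p = 0.00606) at 3 h and -0.51 at 1 h, lower in 3 of 3 pairs at both. At 6 h TTC1 had 0.34, higher in 2 of 3 pairs, and at 16 h 0.40, higher in 3 of 3. Prefoldin, which hands new actin and tubulin to TRiC, had 5 of 6 subunits measured and a median of 0.06 at 3 h, so it did not lie below 0 with TRiC. PFDN4 had -0.48 (SE 0.20) at 30 min, lower in 3 of 3 pairs, and 0.44 (SE 0.20) at 16 h, higher in 3 of 3.

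Folding enzymes of the endoplasmic reticulum were measured for 6 of 15 genes, with a median of -0.31 at 15 min and between -0.07 and 0.06 at the other times. PDIA3, a disulfide isomerase, had -0.72 at 15 min and -0.72 at 30 min (SE 0.27 each), lower in 3 of 3 pairs at both. Neither value passed the threshold, and at T0 PDIA3 had 0.37, higher in 3 of 3 pairs. Of the unfolded protein response 7 of 11 genes were measured, with a median of 0.25 at 16 h and between -0.07 and 0.10 at the other times. EDEM1, which targets misfolded glycoproteins for degradation, had 0.68 (SE 0.23, unadjusted p = 0.0083, adjusted p = 0.999) at 6 h, higher in 3 of 3 pairs. Mitochondrial import and proteases were measured for 6 of 9 genes, with medians between -0.14 at 3 h and 0.17 at 30 min, and CLPP, a matrix protease, had 0.66 at T0, 0.66 at 30 min, -0.41 at 1 h and 0.68 at 16 h (SE 0.31 each), the 1 h value with 3 of 3 pairs lower.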

How the data were processed

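The deposited values are linear intensities, 1 per probe and array, with a mean near 1 on each array and at most 2.12% of an array's values at or below 0. What the authors did to obtain them, including array type, scanner, background step and scaling, is not given in the sources used here. Because the SD of array medians was 0.31 and that of interquartile ranges 0.36 (log2), arrays were quantile normalized, floored at the common 1st percentile and log2 transformed. limma 3.58.1 in R 4.3.3 was fitted to 13824 probes with a term per pair and a CM effect per time (14 residual and 6.26 prior degrees of freedom), so an SE pools the spread of all times. P-values are two-sided, adjusted by Benjamini-Hochberg over all probes.

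The pairs come from the labels; their deviations from the group means correlated at 0.308 to 0.754, over 0.1 in 21 of 21. Of 7336 probes naming 1 gene, 7322 matched a GRCh38.p14 gene table by Entrez ID. Promoter letters were searched with Python 3.11.15. The members, gene lists and rule for named genes were chosen with earlier results of these data known. That rule gave array values for each member at the time of its smallest p, the 3 smallest p of each comparison and the 3 smallest over time in each medium. The CCT genes at 3 h, HSPB1, CCT8, the shared probe of HSPE1 and second probes were added after their values were seen. Of the 8 probes that name a member with other genes, only those of HSPB1, CCT8 and HSPE1 with MYO15B are shown. Alternatives were the fit without the block, values as deposited, median centring, filters on dim probes, a floor at the 10th percentile, single times, an intensity trend, averaged probes, leaving out copied values, neighbour centring on assumed grids and leaving out each replicate. The steps were tested on simulated data.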

Additional observations from a re-analysis of the deposited data

How the results depend on the processing

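Over 121 results, 1578 values under an alternative were computed, and 0 member genes passed the threshold in any of them. Of the named changes of single genes, 54 in all, the smallest adjusted p was 0.288, and 6 values changed sign: HSP90B1 at 15 min with the mean of its probes (-0.35) and once replicate 1 was left out (-0.23; leaving out single replicates gave -0.23 to 0.85), CCT6A at 30 min once replicate 2 was left out (-0.10; likewise -0.10 to 0.39), HSPA2 at 30 min with neighbour centring (-0.0558), and HSPE1 at 1 h both as deposited (-0.17) and with median centring (-0.0795). The cause was not tested. Of 55 named changes, the other probe of HSP90B1 included, 36 moved by over 1.5 times when a single replicate was left out and 38 under another setting, and 12 and 16 shrank by over 3 times or changed sign. Without the replicate block the probe count was 0 at 16 h and 0 in the late mean, and no call on a member changed. The block by experiment number left 2 probes over time in NCM and 1 in CM.

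Counts of all probes past the threshold moved more. At 3 h 1 probe was called without the dimmest 25%, without the dimmest 50%, with the 10th percentile floor, with the intensity trend and with averaged probes, against 0. At 16 h, against 1, there were 0 as deposited, 0 with median centring, 0 for the time alone, 0 without each replicate, 2 without the dimmest 25%, 7 without the dimmest 50%, 2 with the floor, 3 with the trend and 5 with neighbour centring. In the late mean, against 6, there were 1 as deposited, 1 with median centring, 10 with the trend, 2 with averaged probes and 0 without each replicate. Late minus early had 1 without the dimmest 50%, the test for any time 2 with the trend, and 1 h between 0 and 1 without a replicate. Over time in NCM, against 2, there were 1 as deposited, 1 with median centring and 0 without each replicate; in CM, against 1, there were 2 with median centring, 2 without the dimmest 50% and 0 to 1 without a replicate.

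The median of the members was -0.10 at T0 with the values as deposited and -0.0617 with neighbour centring. At 1 h it was -0.00753 as deposited, 0.00821 with neighbour centring and 0.0504 to 0.15 without a replicate. At 3 h it was -0.26 with median centring, which moves the median of all genes to -0.10 there, -0.18 without the dimmest 25% and -0.25 without the dimmest 50%. At 6 h it was -0.0772 as deposited, where the median of all genes moves to -0.11 and the members lie 0.04 above it, 0.10 with median centring, -0.0697 without the dimmest 25%, -0.0501 without the dimmest 50% and -0.0583 to -0.0234 without a replicate. The late mean had -0.11 as deposited and -0.13 without the dimmest 50%. For TRiC at 3 h, alternatives chosen after seeing the data, the median was -0.44 as deposited, -0.54 with median centring, -0.44 with neighbour centring, -0.40 with averaged probes and -0.53 to -0.46 without a replicate, with 2 of 6 genes at -0.5 or lower as deposited and 2 to 4 without a replicate, against 4, and with 5 of 6 genes below 0 with neighbour centring and without replicate 2 and 6 of 6 in the others counted. The alternative that leaves out copied values changed no member, since 0 member probes carry them.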
